A study of Homo sapiens with 8 samples.

Results

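The glycogen genes described here are 10 genes that act in the synthesis and breakdown of glycogen: PGM1, PGM2, UGP2, GYG1, GYS1, GBE1, PYGL, PYGB, PPP1R3B and PPP1R3C. They were chosen by name out of 33616 genes on the array, with earlier results of these data known. Their values come from the transcript clusters (groups of probes summarised to 1 value) whose annotation gives exactly 1 gene symbol. Where a gene had several such transcript clusters, the brightest on average over the 8 samples was to stand for it, but each of the 10 had a single one, so that no measured value entered the choice of a row. RNA came from LN229, an established human glioblastoma line, grown on porous polyester inserts. Cells were held for 18 h under 23 Pa of compressive solid stress (CSS), applied by weight discs of stainless steel over a cushion of agar (n = 4), or were cultured with neither cushion nor discs (n = 4). Every comparison is thus of cushion and weight together against neither, in 1 cell line.

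The labels of all 8 samples contradict themselves. Samples titled 23 Pa CSS have a source name and description of uncompressed cells, and samples titled no CSS have those of compressed cells. Groups follow the titles, each log2 difference subtracts the mean of those titled no CSS from that of those titled 23 Pa CSS, and every sign turns if the source names are right. The words higher, lower, rose and fell below are meant in this sense. A gene rose or fell where the adjusted p of limma, corrected over all 135750 transcript clusters tested, was under 0.05.

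Glycogen is a branched store of glucose. Glucose 6-phosphate is turned into glucose 1-phosphate by phosphoglucomutase and then into UDP-glucose, the donor of glucose units. Glycogenin starts the chain, glycogen synthase lengthens it, and the branching enzyme adds side chains, while glycogen phosphorylase releases glucose 1-phosphate again. Targeting subunits hold protein phosphatase 1 on the particle, where it activates the synthase and silences the phosphorylase. In the brain, glycogen is stored mainly in astrocytes, and in several cancer lines low oxygen is known to raise GYS1, GBE1, PGM1 and PPP1R3C.

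In the samples titled 23 Pa CSS, 3 of the 10 genes rose: GYS1, GBE1 and PGM1, by 2.21, 2.00 and 1.17 on the log2 scale. None fell, and 7 did not pass the test. Of all 33616 genes 1.36% rose and 0.970% fell. Samples of the groups did not overlap in 6 of the 10 genes, each time with the samples titled 23 Pa CSS above, as was the case for 9.10% of all genes (the reverse held for 4.6%). An unadjusted p under 0.05 was found for 7 of the 10, beside 19.3% of all genes. The median difference of the 10 genes was 0.542, beside 0.0935 over all genes. PPP1R3B was counted among the 6 and the 7, and PPP1R3C among the 7. Both lay below the 95th percentile of the negative control rows on every array. The median lies between PYGB (0.531) and PPP1R3B (0.553). These 2 counts and the median thus rest in part on dim signals. As the 10 were chosen with earlier results of these data known, the shares over all genes are no test of the list.

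To show where these transcripts start, the 250 bases upstream of the RefSeq start (GRCh38.p14) are printed for the 3 genes that rose and for GYG1, which had almost the same mean in both groups. Sequences run 5′ to 3′ on the gene's strand. Capitals mark ACGTG or GCGTG on either strand (CACGT and CACGC read in reverse), the core to which hypoxia-inducible factors are known to bind.
GYS1, glycogen synthase of muscle and most tissues, chr19:48993310-48993559, minus strand: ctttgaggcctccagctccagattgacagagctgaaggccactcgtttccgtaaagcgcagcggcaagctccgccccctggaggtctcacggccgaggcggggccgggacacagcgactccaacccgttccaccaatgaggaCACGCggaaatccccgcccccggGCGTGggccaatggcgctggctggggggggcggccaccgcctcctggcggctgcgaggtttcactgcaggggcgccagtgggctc
GBE1, the branching enzyme, chr3:81761646-81761895, minus strand: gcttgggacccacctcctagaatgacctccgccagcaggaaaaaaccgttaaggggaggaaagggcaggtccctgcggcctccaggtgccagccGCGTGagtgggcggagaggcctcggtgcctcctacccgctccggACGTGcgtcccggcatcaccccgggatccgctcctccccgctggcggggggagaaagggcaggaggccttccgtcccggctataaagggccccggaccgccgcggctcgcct
PGM1, phosphoglucomutase, the most upstream of 3 listed starts, chr1:63593161-63593410, plus strand: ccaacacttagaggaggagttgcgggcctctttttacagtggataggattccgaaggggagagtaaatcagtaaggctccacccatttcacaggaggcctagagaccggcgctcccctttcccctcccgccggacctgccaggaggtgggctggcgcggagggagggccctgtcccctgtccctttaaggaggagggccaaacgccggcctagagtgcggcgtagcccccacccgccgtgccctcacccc
GYG1, glycogenin, chr3:148991290-148991539, plus strand: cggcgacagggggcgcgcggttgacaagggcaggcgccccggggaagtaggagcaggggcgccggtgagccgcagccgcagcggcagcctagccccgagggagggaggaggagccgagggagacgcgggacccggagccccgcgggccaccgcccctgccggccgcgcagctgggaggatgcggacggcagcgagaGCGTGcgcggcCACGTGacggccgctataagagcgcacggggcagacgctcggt

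The core letters stood upstream of genes that rose and of genes that did not. RefSeq windows were matched for 9 of the 10 genes, with 12 starts in all, and 9 of the 12 windows, from 8 of the 9 genes, held ACGTG or GCGTG on either strand. Of 35116 windows of 250 bases upstream of all listed starts, 43.2% held at least 1 of the cores, 18.5% held ACGTG and 32.2% held GCGTG. The 12 windows were 51.2 to 77.2% G and C bases. The shares over all windows were not matched for this, so they do not show an excess in the 12. The GYS1 window held 2 GCGTG cores and no ACGTG. The GBE1 window held 1 of each, with ACGTG beginning 112 bases before the start, and a TATAAA that 10.7% of all windows hold. The GYG1 window held 1 GCGTG and a CACGTG, which contains ACGTG on both strands and was present in 6.34% of all windows. The printed PGM1 window held neither core, whereas the window of its second listed start held 3. Which start was in use in these cells was not measured by the array.

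GYS1 (transcript cluster TC1900011113.hg.1) had the largest difference of the 10. Its signal was 12.90, 12.45, 11.95 and 12.39 in the samples titled 23 Pa CSS, against 10.02, 9.84, 10.72 and 10.27 in those titled no CSS. The lowest sample titled 23 Pa CSS thus lay 1.24 above the highest one titled no CSS. The means were 12.42 ± 0.386 titled 23 Pa CSS and 10.21 ± 0.379 titled no CSS (SD, n = 4 each), a 4.63-fold rise (95% interval 3.19 to 6.71, limma adjusted p = 0.00469). Only 10 of all genes had a larger positive difference.

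GBE1 (TC0300011651.hg.1), which forms the branch points, had 11.92, 11.45, 11.72 and 11.79 in the samples titled 23 Pa CSS, against 9.78, 9.83, 9.91 and 9.36 in those titled no CSS. Its groups were the most widely separated of the 10, with a gap of 1.54. The means of 11.72 ± 0.199 titled 23 Pa CSS and 9.72 ± 0.248 titled no CSS (SD, n = 4 each) gave a 4.01-fold rise (95% interval 3.03 to 5.30, limma adjusted p = 0.00206). GYS1 and GBE1 remained past the threshold under each of the 16 alternative settings run, with differences of 1.90 to 2.38 for GYS1 and 1.69 to 2.09 for GBE1.

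PGM1 (TC0100008591.hg.1), the main phosphoglucomutase of most tissues, had 13.88, 13.62, 13.49 and 14.04 in the samples titled 23 Pa CSS, against 12.73, 12.84, 12.68 and 12.07 in those titled no CSS. The groups did not overlap, and titled no CSS replicate 4 lay below the other 3 of its group. The means were 13.76 ± 0.250 titled 23 Pa CSS and 12.58 ± 0.348 titled no CSS (SD, n = 4 each), a 2.26-fold rise (95% interval 1.64 to 3.12, limma adjusted p = 0.0228). The call was lost without titled 23 Pa CSS replicate 1 or 4 (adjusted p = 0.0646 and 0.0679) and when titled no CSS replicate 2, 3 or 4 was left out (adjusted p = 0.0556, 0.0528 and 0.0630), where the difference stayed between 1.00 and 1.26.

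**Figure D1:**
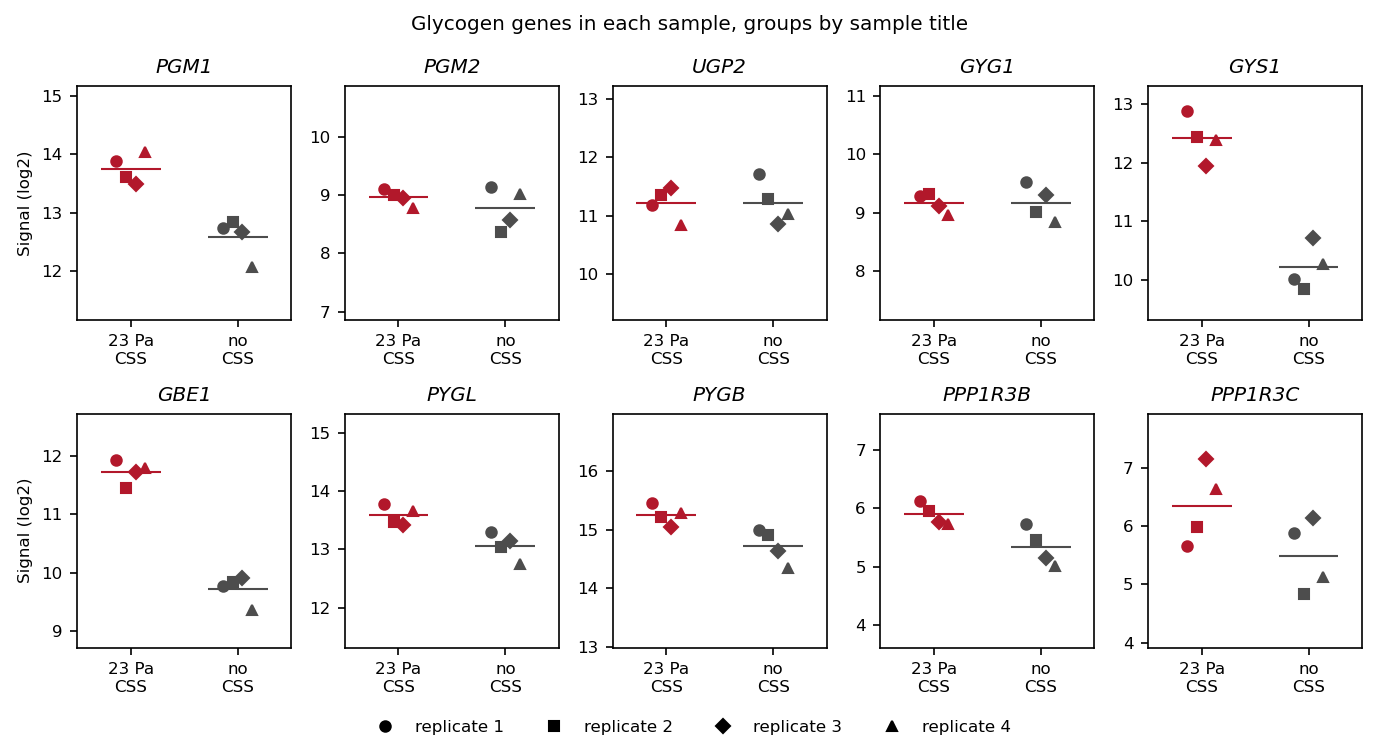
Signal (log2, vertical axes of equal length) of the 10 glycogen genes in each sample titled 23 Pa CSS (left, red) and titled no CSS (right, grey). Each point is 1 sample, its shape gives the replicate number of the title, and the line is the group mean of 4. GYS1, GBE1 and PGM1 show a clear gap between the groups, while PGM2, UGP2, GYG1 and PPP1R3C overlap.

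Genes of the neighbouring steps did not pass. PGM2 (TC0400007243.hg.1), a relative of PGM1 that acts mainly on phosphopentoses, had 9.10, 9.00, 8.95 and 8.78 in the samples titled 23 Pa CSS, against 9.13, 8.37, 8.58 and 9.01 in those titled no CSS. The groups overlapped, and the difference was 0.18 (95% interval -0.25 to 0.62, limma adjusted p = 0.725). It was 0.30 without titled no CSS replicate 1, 0.12 without replicate 3 of that title and 0.051 without replicate 2. UGP2 (TC0200007785.hg.1), which makes UDP-glucose, had 11.19, 11.36, 11.48 and 10.84 in the samples titled 23 Pa CSS, against 11.71, 11.28, 10.86 and 11.04 in those titled no CSS.

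The UGP2 means, 11.22 ± 0.279 titled 23 Pa CSS and 11.22 ± 0.368 titled no CSS (SD, n = 4 each), were almost equal, and the 95% interval of the difference ran from -0.49 to 0.48 (limma adjusted p = 0.999). GYG1 (TC0300009126.hg.1), the primer protein of the particle, had 9.28, 9.32, 9.12 and 8.95 in the samples titled 23 Pa CSS, against 9.52, 9.00, 9.30 and 8.84 in those titled no CSS. Its 95% interval was -0.42 to 0.42 (limma adjusted p = 0.999), so that a rise as large as that of PGM1 lies outside the intervals of UGP2, GYG1 and PGM2.

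Both phosphorylases were higher in each sample titled 23 Pa CSS, by amounts that did not pass. PYGL (TC1400009147.hg.1), the liver-type phosphorylase, had 13.78, 13.47, 13.42 and 13.66 in the samples titled 23 Pa CSS, against 13.30, 13.05, 13.15 and 12.75 in those titled no CSS. PYGB (TC2000007015.hg.1), the brain type, had 15.46, 15.22, 15.04 and 15.28 in the samples titled 23 Pa CSS, against 14.99, 14.90, 14.64 and 14.35 in those titled no CSS. The groups did not overlap in either gene, with gaps of only 0.13 and 0.055.

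The difference was 0.52 for PYGL (95% interval 0.13 to 0.91, limma adjusted p = 0.165) and 0.53 for PYGB (95% interval 0.12 to 0.94, adjusted p = 0.186). In a two-sided exact permutation test over the 70 assignments of the samples both gave p = 0.0286, the smallest possible with 4 against 4. Centring on hybridisation controls moved the median difference of all genes by -0.311. With it the difference was 0.21 for PYGL and 0.22 for PYGB (limma adjusted p = 0.493 and 0.505).

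The targeting subunits gave dim signals. PPP1R3B (TC0800009529.hg.1), which brings protein phosphatase 1 to glycogen in liver and other tissues, had 6.12, 5.96, 5.76 and 5.73 in the samples titled 23 Pa CSS, against 5.73, 5.46, 5.15 and 5.02 in those titled no CSS. PPP1R3C (TC1000011411.hg.1), also called protein targeting to glycogen, had 5.65, 5.98, 7.14 and 6.63 in the samples titled 23 Pa CSS, against 5.88, 4.84, 6.13 and 5.12 in those titled no CSS. Both lay below the 95th percentile of 612 negative control rows on all 8 arrays (7.40 to 7.84 titled 23 Pa CSS, 7.17 to 7.65 titled no CSS), whereas the other 8 genes lay above it on all 8, so no fold is given for these 2.

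The PPP1R3B groups did not overlap, by a margin of 0.0078, and the difference was 0.55 (limma adjusted p = 0.184). The PPP1R3C groups overlapped, and replicate 1 was the lowest of the samples titled 23 Pa CSS although it was the highest for 6 of the 10 genes. Its difference of 0.86 had the widest interval of the 10 (95% interval 0.068 to 1.65, limma adjusted p = 0.268). Without titled 23 Pa CSS replicate 3 it was 0.59.

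**Figure D2:**
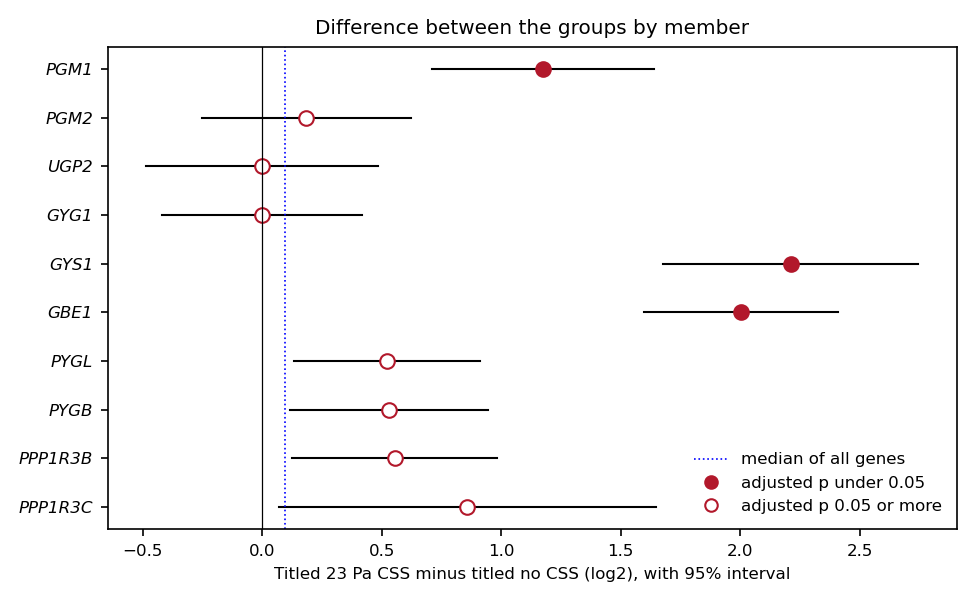
Difference between the groups (titled 23 Pa CSS minus titled no CSS, log2, horizontal axis) for each of the 10 genes, with its 95% interval from limma. Filled points passed the adjusted threshold, and the dotted line is the median of all genes at 0.0935. GYS1, GBE1 and PGM1 are filled, and the intervals of PGM2, UGP2 and GYG1 cross 0.

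Members with neighbouring roles were set against each other within each sample, in 7 pairs picked after their values were seen. The log ratio of GYS1 to GYG1 was higher by 2.21 in the samples titled 23 Pa CSS, that of GYS1 to PYGL by 1.69, that of PGM1 to UGP2 by 1.18 and that of PGM1 to PGM2 by 0.99. In these 4 pairs the groups did not overlap, and a two-sided exact permutation test gave p = 0.0286, the smallest possible. Benjamini-Hochberg adjustment over the 7 pairs gave 0.05, which is not under the threshold. Each of the 4 holds GYS1 or PGM1, whose groups were already separate. The adjustment covers only pairs picked with the values known, so these p-values decide nothing. GYS1 and GBE1 differed from each other by 0.21 (exact p = 0.457, adjusted 0.64). No value is given for the pair of PPP1R3C and PPP1R3B, since both lay below the negative control percentile on all 8 arrays. For PYGL and PYGB the shift in the log ratio was -0.0085, with SDs of 0.0619 in the samples titled 23 Pa CSS and 0.155 in those titled no CSS (exact p = 0.886, adjusted 0.886).

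The array of titled no CSS replicate 4 gave the lowest signal of its group for 6 of the 10 genes and the highest for none. Its mean over 23 antigenomic background rows was 3.85, against 4.12 to 4.25 on the arrays titled 23 Pa CSS and 4.04 to 4.12 on the others titled no CSS. The part of this array's background in the results was not tested. Without it, the differences were 2.23 for GYS1, 1.88 for GBE1 and 1.00 for PGM1, with adjusted p of 0.0217, 0.00912 and 0.0630.

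**Figure D3:**
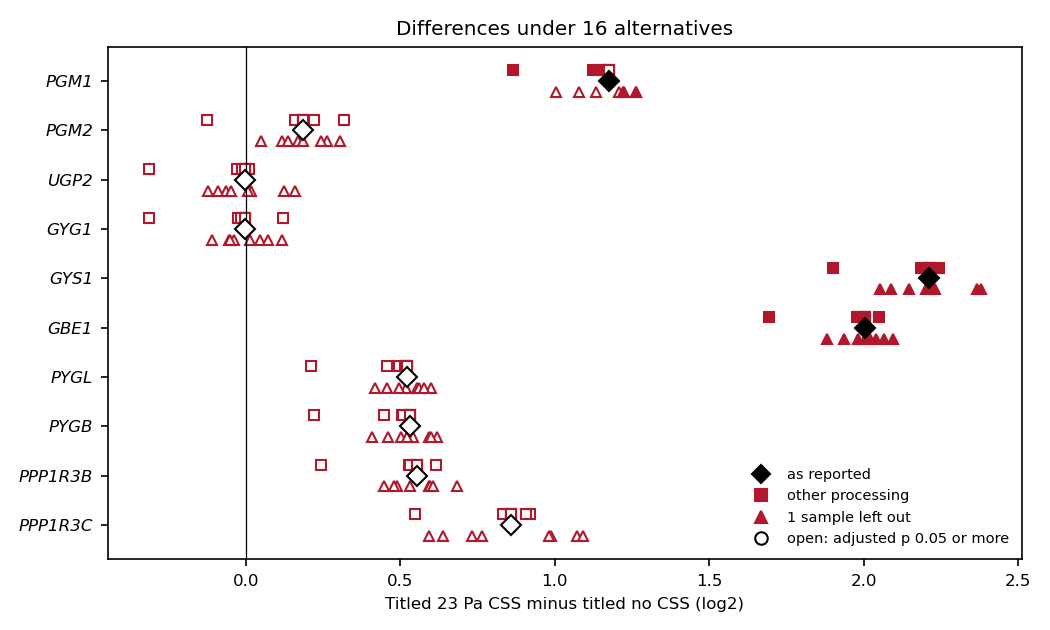
Difference between the groups (log2, horizontal axis) of each gene as reported (black diamonds), under 8 other ways of processing (squares) and with 1 of the 8 samples left out (triangles). Filled symbols passed the adjusted threshold. All symbols of GYS1 and GBE1 are filled, those of PGM1 in part, and none of the other 7 genes.

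Among 42 measured genes of 5 further lists of the pathway, 1 rose, 0 fell and 41 did not pass, and their median difference was 0.0131. Each list held 1 or more genes below the negative control percentile on all 8 arrays. Of the remaining core and accessory glycogen genes, 0 of 8 passed limma's threshold and 1, GYG2, had an unadjusted p under 0.05. Of these 8, 7 lay below the 95th percentile of the negative control rows on all 8 arrays, so the count says little about their levels. The liver synthase GYS2 averaged 3.91 in the samples titled 23 Pa CSS and 3.80 in those titled no CSS. The muscle phosphorylase PYGM averaged 3.89 in the samples titled 23 Pa CSS and 3.70 in those titled no CSS. GYG2, the liver glycogenin, averaged 4.10 titled 23 Pa CSS and 4.67 titled no CSS, and EPM2A, the glycogen phosphatase laforin, averaged 5.51 titled 23 Pa CSS and 5.26 titled no CSS. All 4 were among the 7 dim genes, so no difference is given for them.

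Phosphorylase kinase, which switches the phosphorylase on, showed 0 of 5 measured subunits past limma's threshold and 0 with an unadjusted p under 0.05. Of these 5, 2 lay below the negative control percentile on all 8 arrays. PHKA1, a regulatory subunit, differed by 0.33 (adjusted p = 0.487) and PHKG2, a catalytic subunit, by -0.17 (adjusted p = 0.686), or by -0.076 without titled 23 Pa CSS replicate 3. Of the other subunits of protein phosphatase 1, 0 of 8 passed limma's threshold and 0 had an unadjusted p under 0.05. The catalytic subunit PPP1CA differed by 0.21 (adjusted p = 0.594), or by 0.13 without titled no CSS replicate 4. The 5 targeting subunits of the list, PPP1R3A, PPP1R3D, PPP1R3E, PPP1R3F and PPP1R3G, lay below the negative control percentile on all 8 arrays. Of these PPP1R3E averaged 6.43 titled 23 Pa CSS and 6.14 titled no CSS.

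Of 10 kinases of glycogen synthase and subunits of the energy sensor AMPK, 2 lay below the negative control percentile on all 8 arrays. Of the 10, 0 passed limma's threshold and 3 had an unadjusted p under 0.05. The catalytic subunit PRKAA1 had 13.04, 13.86, 14.10 and 13.33 in the samples titled 23 Pa CSS, against 14.35, 14.26, 14.20 and 14.21 in those titled no CSS. All samples titled 23 Pa CSS were lower, with a difference of -0.67 (adjusted p = 0.170). The regulatory subunit PRKAG1 differed by 0.44 (adjusted p = 0.182), with all samples titled 23 Pa CSS above the others. GSK3A, a glycogen synthase kinase, was the third and differed by 0.68 (adjusted p = 0.228), which became 0.41 without titled no CSS replicate 4.

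Of 11 measured genes that make or use sugar phosphates and UDP-glucose, 1 lay below the negative control percentile on all 8 arrays. GPI was the only one that rose. It converts glucose 6-phosphate into fructose 6-phosphate and so shares its substrate with phosphoglucomutase. GPI had 15.60, 15.38, 15.24 and 15.27 in the samples titled 23 Pa CSS, against 14.07, 13.97, 14.16 and 13.12 in those titled no CSS. The means of 15.37 ± 0.163 titled 23 Pa CSS and 13.83 ± 0.479 titled no CSS (SD, n = 4 each) gave a 2.91-fold rise (limma adjusted p = 0.0138), which remained past the threshold under each of the 16 alternatives. UGGT2, a glucosyltransferase that acts on misfolded glycoproteins, differed by -1.07 without passing (adjusted p = 0.0864). Its 4 samples titled 23 Pa CSS were spread over 11.23 to 12.74, all below the 12.87 to 13.02 of those titled no CSS. Without titled 23 Pa CSS replicate 3 it passed (difference -1.37, adjusted p = 0.00887).

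**Figure D4:**
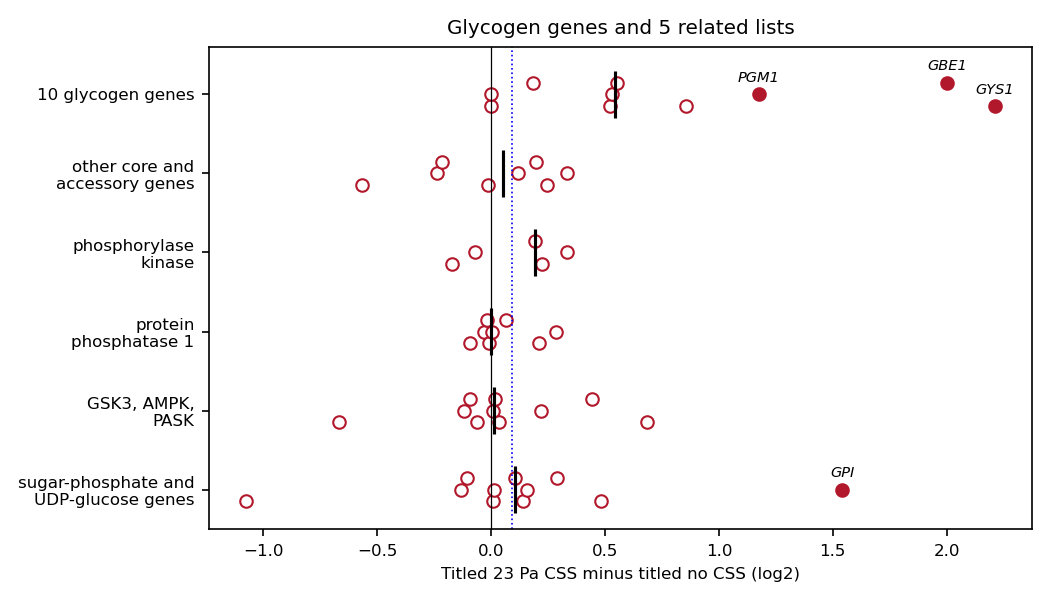
Difference between the groups (titled 23 Pa CSS minus titled no CSS, log2, horizontal axis) of the 10 glycogen genes and of the measured genes of 5 related lists, 1 point per gene. Filled points passed the adjusted threshold, black bars are list medians and the dotted line is the median of all genes. GPI is the only filled point outside the 10 genes.

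The genes whose profile over the 8 samples was most like that of a member were found from the root-mean-square difference of profiles centred on their own mean, against 33615 other genes. For GYS1 these were BHLHE41, P4HA2 and EHD2, at 0.290, 0.307 and 0.310 log2 units. For GBE1 they were P4HA2, MPI and PGK1, at 0.137, 0.144 and 0.162. PGM1 was closest to ETNK2, OBSL1 and SNORD24, at 0.0542, 0.106 and 0.121. P4HA2, a collagen prolyl hydroxylase, stood near both GYS1 and GBE1 and differed by 2.05 between the groups. MPI, which interconverts mannose 6-phosphate and fructose 6-phosphate, differed by 1.75, and PGK1, a glycolytic kinase, by 2.08. BHLHE41, a transcription repressor of the circadian clock, differed by 1.88. ETNK2, an ethanolamine kinase, differed by 1.11. EHD2 is a membrane-bound ATPase of caveolae, OBSL1 a cytoskeletal adaptor and SNORD24 a small nucleolar RNA. These genes had an adjusted p under 0.05 in limma, the highest being 0.0275 for ETNK2, but likeness to a member that rose favours such genes. The 3 near PGM1 lost that call when certain samples were left out, which their likeness to PGM1 over the same samples favours too. ETNK2 lost it without any 1 sample but titled 23 Pa CSS replicate 3, with an adjusted p of up to 0.0802. OBSL1 lost it without titled 23 Pa CSS replicate 1 or 4 or titled no CSS replicate 2, 3 or 4 (up to 0.0716). SNORD24 lost it without titled 23 Pa CSS replicate 1, 2 or 4 or titled no CSS replicate 1, 2 or 4 (up to 0.0699).

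Over all transcript clusters 2.01% changed, 789 higher and 1938 lower, and without any 1 of the 8 samples their number shifted by over 1.5 times, to between 411, where titled no CSS replicate 4 was left out, and 5360, where titled 23 Pa CSS replicate 3 was. Column medians lay between 4.63 and 4.68 in the samples titled 23 Pa CSS and between 4.59 and 4.66 in those titled no CSS, and the table's maximum was 19.93. Of 7 markers of glioblastoma and glial lines, VIM, NES, CD44, SOX2 and S100B lay above the negative control percentile on all 8 arrays, and the astrocyte protein GFAP and the progenitor factor OLIG2 on none. Of 9 markers of other cell types, 8 lay below it on all 8 arrays, among them the leukocyte antigen PTPRC, which averaged 5.59 titled 23 Pa CSS and 4.83 titled no CSS. The exception was CD68, a lysosomal glycoprotein used as a macrophage marker, with 12.73 ± 0.447 in the samples titled 23 Pa CSS and 11.25 ± 0.131 in those titled no CSS (SD, n = 4 each, limma adjusted p = 0.0132). Without titled no CSS replicate 4 its adjusted p was 0.0508. The summed log2 signal of the 9 markers includes the 8 dim ones, so it says little about other cell types. It was 49.2 to 52.8 in the samples titled 23 Pa CSS and 46.4 to 48.2 in those titled no CSS. The sum of the 7 glioblastoma and glial markers, which includes the dim GFAP and OLIG2, did not overlap either. It was 78.9 to 79.9 titled 23 Pa CSS and 75.8 to 78.0 titled no CSS. Of these 7 genes 0 passed limma's threshold, and their differences ran from -0.030 for S100B to 0.66 for NES. The part of both sums in the results for the glycogen genes was not tested. A bulk array cannot tell fewer cells with a transcript from less RNA per cell.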

How the data were processed

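The authors deposited a table of log2 signal per transcript cluster and array, made with Transcriptome Analysis Console per the submitters' processing notes. The software version, genome build and normalization are not given in the sources used here. The Human Transcriptome Array 2.0 is named in the series text, but the transcript cluster identifiers and the platform annotation are of another array of that maker, so no genome position of a probe is given. Array signal carries no counts, and 4 arrays per group limit the precision.

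Of 138745 rows, 2995 control rows were set aside and 135750 tested, with no filter on dim signal. Exactly 1 gene symbol was given for 36176, several for 1119 and none for 98455. Symbols were updated by Entrez identifier, and the transcript cluster with the highest mean stood for each of 33616 genes. Differences were tested in R 4.3.3 with limma 3.58.1 (lmFit and eBayes, two-sided, with 5.28 prior and 6 residual degrees of freedom) and p-values adjusted over all 135750 rows by Benjamini-Hochberg. Files were read with pandas 2.3.3, and figures drawn with matplotlib 3.10.9.

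Members and lists were chosen with earlier results of these data known, so no list was tested. Beside all members, the text names the genes of the other lists that passed, the 2 with the smallest p of each list and the 3 genes most like each member that rose. GSK3A, GYS2, PYGM and the marker genes were named after their values were seen. Of the 48 genes of the other lists 6 are not reported here. Nothing in the labels says whether replicates are separate cultures, so the spread behind the p-values may be technical. Deviations from the group means, over all tested rows, correlated between same-numbered samples at -0.0295, -0.0178, -0.0791 and -0.0460. These values show no pairing by number. Most tested rows are dim, so the check cannot exclude such pairing. No batch is given in the labels. Alternatives were 3 scalings, 2 row filters, 2 variance models, a replicate block, each sample left out, and an exact permutation test for the members. A mean over several rows of a gene was not needed, since each member had 1.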

Additional observations from a re-analysis of the deposited data

Results flagged for a closer look

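In 66 groups of 4 samples, from 33 genes followed singly, a sample far from the other 3 (Dixon's test at the 95% level) was found in 3, where chance gives about 1 in 20. None was in the 10 glycogen genes. PRKAG1, the AMPK subunit, was 16.59 in titled 23 Pa CSS replicate 1, while the other 3 samples of that title lay between 16.27 and 16.31. MPI, near GBE1 in profile, was 9.19 in titled no CSS replicate 4, while the other 3 lay between 9.60 and 9.64. GYS2, below the negative control percentile on all 8 arrays, was 4.33 in titled no CSS replicate 3, while the other 3 lay between 3.60 and 3.63.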

How the results depend on the processing

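GYS1 and GBE1 kept their direction and their call under all 16 alternatives, and 7 of the 10 glycogen genes passed under none. PGM1 passed under 10 of the 16 and lost its call with a replicate block (adjusted p = 0.0640) and without any 1 of 5 samples, which leaves 2 to 3 genes called of the 10. The replicate block changed no other call among the 10 genes and gave 1329 changed transcript clusters in place of 2727. Centring on 4 hybridisation controls moved the median difference of all genes by -0.311. It gave 8581 changed transcript clusters, 373 higher and 8208 lower, where the deposited scaling gave 789 and 1938 and quantile normalization 1065 and 1470. With 1 row per gene 1741 passed, and with 1 sample left out 411 to 5360. Of the 42 other pathway genes 3 passed with hybridisation centring, 2 with 1 row per gene, 2 with a trended and robust prior and 1 to 2 with 1 sample left out. The sign turned with hybridisation centring for PGM2 (-0.13), EPM2A (-0.064), PPP1CA (-0.10), PPP1R3E (-0.025), GYS2 (-0.19) and PYGM (-0.12), and with quantile normalization for GYG1 (0.12) and UGP2 (0.0096), none of which passed under any alternative. With 1 sample left out GYG1 ranged from -0.11 to 0.12, UGP2 from -0.12 to 0.16 and the dim GYS2 from -0.0018 to 0.30. The exact permutation test put PYGL, PYGB and PPP1R3B at p = 0.0286, the smallest it can give, as it does whenever the groups do not overlap. Signal over background limits PPP1R3B and PPP1R3C, and the cause of these shifts was not tested.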

Other observations

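UGGT2 and PRKAA1, both lower in each sample titled 23 Pa CSS, varied far more within that title than within the other. The SD of UGGT2 was 0.693 in the samples titled 23 Pa CSS and 0.0694 in those titled no CSS, and the SD of PRKAA1 was 0.486 titled 23 Pa CSS and 0.0717 titled no CSS. In both genes replicates 1 and 4 were the lowest samples titled 23 Pa CSS and replicate 3 the highest. GBE1, by contrast, had SDs of 0.199 titled 23 Pa CSS and 0.248 titled no CSS. Limma assumes 1 spread for both groups, so the adjusted p of UGGT2 and PRKAA1 rests on that assumption.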
